A study of Saccharomyces cerevisiae with 118 samples.

Results

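The left part of chromosome XII of Saccharomyces cerevisiae runs from the telomere, through the centromere, to the ribosomal DNA (rDNA), the tandem array of ribosomal RNA genes. Genes were taken from the deposited tables when they lay on chromosome XII and ended below position 451786 of the R64 genome, the start of the rDNA. The rule left out cytosolic ribosomal protein genes, the PAU, ATG and ERG families, a retrotransposon gene and GAL2, SDH2, HSP104 and PDC5. It kept 214 of the 230 genes left of the rDNA, out of 6664 nuclear genes. Of these members, 149 lie between the centromere and the rDNA and 65 beyond the centromere, between 3.47 and 450.46 kb from the array. Dubious open reading frames number 23. The rule used position and name, not a measured value.

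The study followed mother cells of a diploid strain carrying the mother enrichment program (MEP), in which estradiol activates a Cre recombinase that stops daughters from dividing. All groups were MEP diploids grown in YP with a sugar or with acetate. Log phase cultures were harvested without estradiol, and aged mothers were biotin-labelled, cultured with it and purified, so age and handling cannot be told apart in any comparison with log phase. Wild type was collected at log phase, 24 h and 48 h on glucose (3, 4 and 4 samples) and on galactose (3 each), with a 72 h sample on glucose and acetate and 1 or 2 samples a time on fructose, sucrose, raffinose, raffinose with galactose, or acetate. On galactose, cat8 and cox9 gal80 cells had 2 samples a time and snf4 cells 1 at log phase and 2 at 24 h. In media shifts, wild type spent 24 h in glucose or galactose and then 24 h in the same or the other sugar (3 samples each). The shifted samples carry log as their age label. They were grouped by their media label and taken as aged from the description in the study.

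The Pgpd-HAP4 strain (HAP4oe), which expresses the respiratory regulator HAP4 from the strong GPD promoter, was collected on glucose at log phase, 24 h and 48 h (2 samples each). At 48 h its mothers were also sorted by wheat germ agglutinin (WGA), a lectin that stains the bud scars left by each division, into low, medium and high fractions (2 samples each), and wild type into low and high fractions (1 sample each). The study describes sorting on both GFP and WGA intensity. The HAP4oe libraries of replicate 1 bear GFP labels, high for low WGA, medium for medium and low for high. In the study low WGA staining went with a strong signal of the mitochondrial Tom70-GFP reporter. A further 13 deletion strains on glucose (hap4, gcn4, snf4, dot6 tod6, pmr1, yak1, tec1, rox1, mig1, adr1, sip4, cat8 and clb5) had 1 sample at log phase and 1 at 48 h, and pmr1 also 1 at 24 h. The study describes replicates as biological, and sample titles place most of them in separate experiments. All samples of cat8, cox9 gal80 and snf4 on galactose came from 1 experiment, and the labels do not say whether these were separate cultures.

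As background, rDNA repeats are copied and lost often in yeast, and circles excised from the array (ERCs) build up in ageing mothers. Chromosome XII is unusual in that its right arm beyond the rDNA depends on complete replication and separation of the array before it can segregate, whereas the left part carries the centromere and segregates ahead of it. The left part is therefore the natural neighbour against which the genes right of the array (called ChrXIIr here, 328 genes) can be set. The members themselves are a mixed set that includes genes of iron, sulfur and mitochondrial metabolism, secretion and the cell cycle.

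Sequences of the centromere and of 4 members are shown because the centromere divides the members into the 149 and 65 above and because results below turn on these genes. The centromere CEN12 (chrXII:150828-150947, minus strand, RefSeq, R64) is printed with its first and last conserved elements, CDEI and CDEIII, in capitals. The other windows hold the 150 bases that end 100 bases before the start codon. Capitals mark GCACCC, the core bound by the iron regulators Aft1 and Aft2, on either strand in TIS11 (chrXII:416759-416908, minus), FRE6 (chrXII:39572-39721, minus) and FRA1 (chrXII:81211-81360, plus). In YLR149C (chrXII:439924-440073, minus) they mark CACGTG, the E-box.
CEN12: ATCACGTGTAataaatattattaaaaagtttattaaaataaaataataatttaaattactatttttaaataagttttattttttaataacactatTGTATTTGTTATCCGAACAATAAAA
TIS11: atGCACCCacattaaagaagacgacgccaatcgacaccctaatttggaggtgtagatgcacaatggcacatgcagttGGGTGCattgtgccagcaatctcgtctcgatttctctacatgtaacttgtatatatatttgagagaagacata
FRE6: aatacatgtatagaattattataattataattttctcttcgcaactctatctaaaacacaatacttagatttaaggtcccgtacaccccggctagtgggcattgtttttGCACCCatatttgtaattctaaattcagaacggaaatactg
FRA1: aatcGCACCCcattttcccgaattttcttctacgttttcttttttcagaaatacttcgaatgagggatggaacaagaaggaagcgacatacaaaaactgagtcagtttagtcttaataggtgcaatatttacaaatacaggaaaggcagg
YLR149C: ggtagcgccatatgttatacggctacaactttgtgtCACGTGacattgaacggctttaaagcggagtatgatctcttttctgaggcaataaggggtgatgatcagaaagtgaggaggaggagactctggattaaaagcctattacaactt

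GCACCC on either strand was found in the windows of 7 of 214 members (3.27%) and of 149 of all 6664 nuclear genes (2.24%). The 7 members were FRE6, FRA1, TPO1, BUD20, TIS11, RKM5 and the dubious YLR149C-A, and TIS11 was the member with 2 matches. CACGTG was found for 4 members (1.87%), ORC3, SPC3, ARP6 and YLR149C, and for 141 nuclear genes (2.12%). A match describes these letters only. CEN12 also holds CACGTG, in its CDEI element of 10 bases.

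Values are log2 of read counts scaled between the samples of a table, counted on the strand of each gene. Unsorted samples held between 2901884 and 22453467 reads on genes. They were lower in sorted cells, with 565971 and 2256787 reads in the HAP4oe low WGA libraries and 561582 in that of wild type, against 5389581 to 5483467 in the high fractions. Each deleted gene was far below its wild type range in its deletion strain, and HAP4 lay between 11.16 and 11.79 in the HAP4oe fractions against 10.05 to 10.51 in the wild type libraries of the same table. In unsorted HAP4oe libraries HAP4 lay between 11.93 and 13.10, against 7.99 to 12.37 in wild type of that table over all media and ages. The ranges overlap, so this check does not separate all unsorted HAP4oe libraries. In the other checks no library went against its strain label.

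The members differed most between sorted fractions. In HAP4oe cells aged 48 h on glucose, the median member was 3.06-fold higher in the low than in the high WGA fraction of the same experiment, in both experiments (median log2 differences 1.61 and 1.62). Higher in the low fraction were 182 and 178 of the 200 members with a mean log2 of at least 4, and 138 and 134 of them (69.0% and 67.0%) were at least 2-fold higher. Off chromosome XII, 20.7% and 20.2% of genes were at least 2-fold higher and the median gene differed by −0.09 and −0.08. The medians of the 15 other chromosomes lay between −0.32 and 0.24 in the 2 experiments. ChrXIIr differed by 2.91 and 2.74, more than the members in each experiment.

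The medium WGA fractions lay near the high ones. From medium to high the members differed by a median of 0.31 in replicate 1 and 0.14 in replicate 2, and from low to medium by 1.29 and 1.43. Wild type fractions showed a smaller difference from low to high, of 0.67 over 196 members, and 62 of these (31.6%) were at least 2-fold higher in the low fraction against 13.4% of genes off chromosome XII. That comparison rests on 1 library each and has no replicate check. The study saw no defined populations in wild type, unlike in HAP4oe, so the sizes of the differences cannot be compared directly between the strains. In a bulk sample, a change in the mix of cells and a change of RNA per cell cannot be told apart.

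As a share of all counted reads, the members took 6.16% and 6.51% in the HAP4oe low fractions. They took 3.87% and 3.78% in the medium and 3.55% and 3.60% in the high fractions, and 4.23% and 3.91% in the wild type low and high fractions. ChrXIIr took 27.0% and 25.2% of reads in the HAP4oe low fractions and 5.88% and 6.05% in the high. The read share of the members therefore rose less than that of ChrXIIr.

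Abundance moved with the difference. With genes split into 3 equal groups by expression, the median difference between low and high WGA in replicate 1 was 2.51 for the weakly expressed members, 1.57 for the middle group and 1.16 for the strongly expressed ones. The same groups of genes off chromosome XII had medians of 0.48, −0.11 and −0.96. Replicate 2 gave 2.36, 1.44 and 0.99 for the members and 0.40, −0.07 and −0.78 for the other genes. In each expression group the members lay above the other genes in both experiments.

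**Figure D1:**
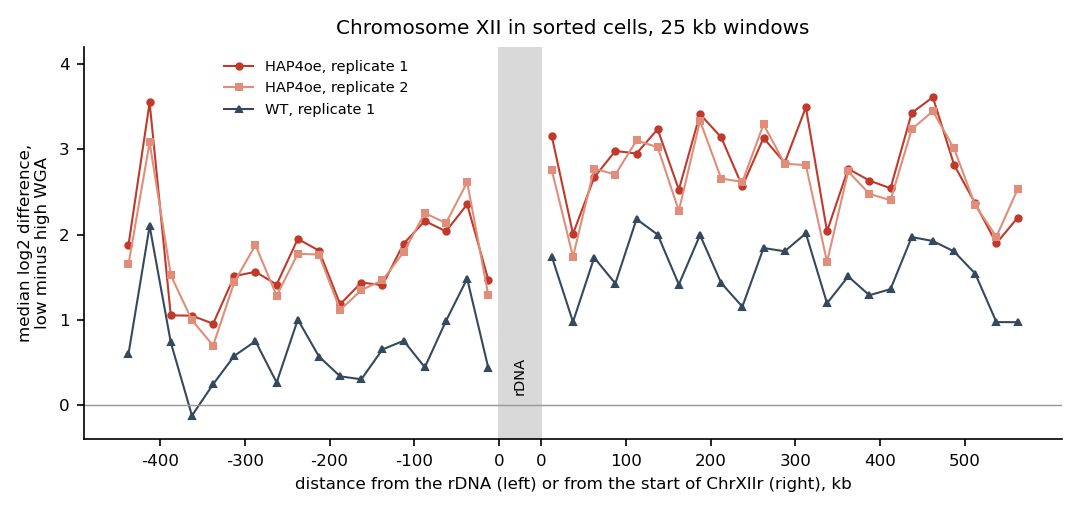
Median log2 difference between the low and high WGA fractions in windows of 25 kb along chromosome XII, against distance in kb from the rDNA (left) or from the start of ChrXIIr (right), with 1 line per pair of fractions. Left of the rDNA all HAP4oe windows lie above 0, and the highest, 400 to 425 kb away, reaches 3.55 and 3.08.

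Distance from the rDNA sorted the members only weakly. Within 100 kb of the array, members in the low fraction were higher than in the high fraction by medians of 2.09 and 2.19. From 100 to 200 kb they were higher by 1.53 and 1.37, from 200 to 300 kb by 1.56 and 1.64, and beyond 300 kb, left of the centromere, by 1.27 and 1.45. The least-squares slope was −0.05 per 100 kb in both experiments. Against log phase, the low fractions gave slopes of −0.21 and −0.16 per 100 kb, with bin medians from near to far of 1.92, 1.53, 1.20 and 1.24 in replicate 1 and of 1.69, 1.32, 1.37 and 1.26 in replicate 2. The wild type low fraction fell from 1.00 to 0.78, 0.43 and 0.30 (slope −0.15). The slope of the HAP4oe low fractions rests on the filter, since the mean slope was −0.18 with it and −0.0042 without it.

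The windows of 25 kb did not order by distance. The window that touches the rDNA had medians of 1.468 and 1.286, below those of its neighbour (2.35 and 2.61). The highest window lay near the telomere, 400 to 425 kb away, and holds the sulfur genes JLP1 and YCT1, the ferric reductase FRE6, the water channel AQY2 and the RNA-binding gene RNP1, all called higher. It also holds COF1, called lower, and LDB18 (0.32) and YBT1 (0.11), which were not called. In wild type fractions this window was also the highest of the left part.

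**Figure D2:**
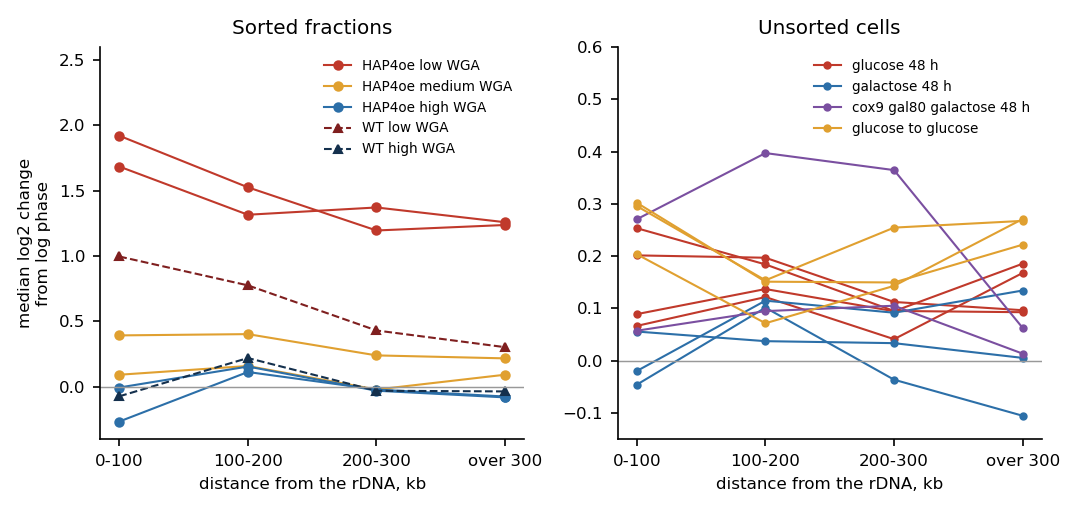
Median log2 change of the members from log phase by distance from the rDNA, with 1 line per sample, in sorted fractions (left) and in unsorted cells (right, with its own axis). The low WGA fractions are highest within 100 kb, at 1.92 and 1.69 in HAP4oe and 1.00 in wild type, while unsorted samples show no common order.

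Members were tested with limma across the 6 HAP4oe fractions. The filter on the mean of all 6 admitted 2 members that had no reads in either high library. Between low and high WGA, 127 of 200 members were called higher and 2 lower at an adjusted p under 0.01, against 30.0% of all 5791 genes tested (15.7% higher and 14.3% lower). The median log2 difference was 1.59 over members and 0.03 over all genes. Both low libraries lay above both high libraries for 171 members and below for 13 (39.3% and 37.6% of all genes). By distance, 36 of 48 members were called higher within 100 kb, 30 of 46 from 100 to 200 kb, 32 of 51 from 200 to 300 kb and 29 of 55 beyond. Without high replicate 2, 82 members were called in place of 129. Between low and medium WGA 80 members were called higher and none lower (10.5% of all genes called, with 158 members at an unadjusted p under 0.05), and between medium and high 5 and none (0.501%, with 42).

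Sulfur genes were called as a whole list, where 127 of 200 members and 15.7% of all genes were called higher. All 7 measured members of the list rose from high to low WGA (median 3.10), though 1 of them no longer passed on quantile-normalised values. JLP1, a sulfonate dioxygenase that frees sulfite for growth, stood at 11.66 and 11.67 in the low fractions of replicates 1 and 2, at 8.88 and 7.37 in the medium and at 4.75 and 4.56 in the high. The low fractions lay far above the high ones, and the log2 difference was 7.01 (SE 0.46, limma adjusted p = 1.89e-05). The glutathione transferase GTT2 (3.61), the cysteine transporter YCT1 (3.50) and the sulfate permease SUL2 (3.10) followed. MHT1 and MMP1, which use and import S-methylmethionine, differed by 1.76 and 1.51, and YLL058W, related to cystathionine gamma-synthase, by 1.71.

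Iron and other metal genes were higher in 7 of 9 cases, and none was lower, against 127 of 200 members called higher. TIS11, which encodes an RNA-binding protein that degrades messages of iron-using proteins when iron is scarce, stood at 10.72 and 10.35 in the low, 9.43 and 8.42 in the medium and 6.42 and 6.00 in the high fractions, a log2 difference of 4.32 (SE 0.39, limma adjusted p = 6.96e-05). The ferric reductase FRE6 stood at 12.85 and 12.52 in the low and 9.53 and 9.44 in the high fractions and differed by 3.20 (SE 0.30, limma adjusted p = 8.76e-05). Its relative FRE8 differed by 3.47 and the iron-sulfur assembly gene ISA1 by 1.81. FRA1, whose product represses the iron regulon, differed by 1.12. The vacuolar iron transporter SMF3 differed by 0.62 and was not called.

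Other lists were called in part, and their counts stand beside the 127 of 200 members called higher. A rise in such a list is therefore not particular to it. Of 16 cell cycle and chromosome genes 11 rose, led by the nuclease scaffold SLX4 (3.12). Of 11 transcription genes 9 rose, among them GAT3, which passed the filter only through its low and medium libraries. Of 9 splicing and RNA processing genes 7 rose, and of 17 membrane traffic genes 11, with COF1 lower. Of 17 ribosome biogenesis genes 8 rose, led by the exonuclease REX3 (3.51). Of 12 mitochondrial genes 6 rose, of 8 cell surface genes 5, of 8 central carbon genes 4 and of 12 stress and signalling genes 5, with STM1 lower. UBI4, the polyubiquitin gene, stood at 13.46 and 13.39 in the low and 11.38 and 11.53 in the high fractions. Each list had a positive median, from 0.76 for central carbon genes to 3.10 for sulfur genes.

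Among single genes, PUT1 encodes proline oxidase, the mitochondrial enzyme that starts proline breakdown. It stood at 14.67 and 14.34 in the low fractions, 11.82 and 10.95 in the medium and 8.38 and 8.03 in the high. The low libraries held 1785 and 6144 of its reads and the high ones 209 and 155. Its log2 difference was 6.30 (SE 0.32, limma adjusted p = 8.50e-06). Wild type fractions, with 1 library each, held PUT1 at 12.37 in the low and 8.87 in the high fraction.

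The members of largest difference were genes with almost no reads in the high fraction. YLR012C, of unknown function, had 72 and 395 reads in the low and 1 and 2 in the high libraries, and YLR031W 71 and 327 against 9 and 0. GAT3, which encodes a GATA-type zinc finger protein, had 27 and 180 reads in the low libraries and none in the high ones. Against a floor of 3 reads per library it was at least 99.5-fold higher, and YLR030W, with 27 and 43 reads against none, at least 48.6-fold. Both passed the filter, a mean log2 of at least 4 over all 6 fractions, only through their low and medium libraries. Their calls therefore lean on the filter. YLR012C neighbours GAT3 and YLR030W neighbours YLR031W on the chromosome. The median over members was the same with both genes at these bounds.

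COF1 and STM1 were lower in the low fractions. COF1, the actin-severing cofilin, stood at 10.72 and 11.56 in the low and 12.39 and 12.79 in the high fractions (log2 difference −1.45, SE 0.36, limma adjusted p = 0.00940). STM1, a ribosome-associated protein that guards idle ribosomes, stood at 12.69 and 13.08 against 14.02 and 14.31 (−1.28, SE 0.31, limma adjusted p = 0.00819). Both groups were separate for both genes, but on quantile-normalised values neither was called.

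**Figure D3:**
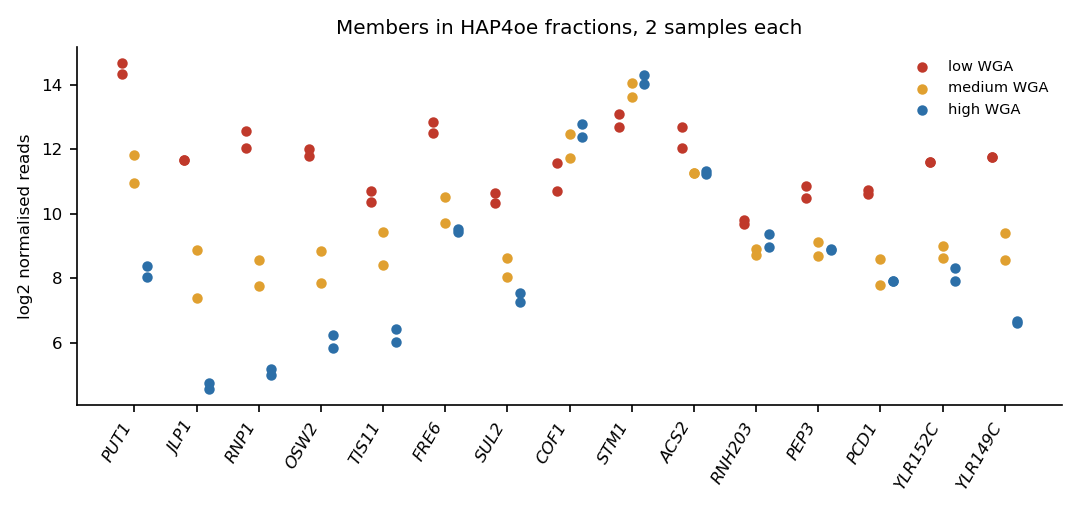
Level (log2 normalised reads) of 15 members in the HAP4oe low, medium and high WGA fractions, with 1 point per sample. PUT1 to SUL2 and YLR149C fall from low to high, COF1 and STM1 rise, and among the 5 other genes near the rDNA is RNH203, which differs by 0.57.

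The members nearest the rDNA did not move as 1 block. RNH203, a subunit of ribonuclease H2 that ends 3.47 kb from the array, stood at 9.67 and 9.82 in the low and 8.98 and 9.37 in the high fractions (0.57, limma adjusted p = 0.115, not called). ACS2, the acetyl-CoA synthetase gene used on glucose, differed by 1.10 and passed narrowly (limma adjusted p = 0.00992). Next came YLR152C, a predicted transporter (3.47), the nudix hydrolase PCD1 (2.76) and STM1, 10.50 kb away and lower. The dubious YLR149C-A was too low to test.

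YLR149C, 11.96 kb from the array, stood at 11.75 and 11.75 in the low, 9.41 and 8.55 in the medium and 6.60 and 6.66 in the high fractions. Its log2 difference was 5.12 (SE 0.33, limma adjusted p = 1.66e-05). PEP3, a vacuolar tethering subunit and the eighth member by distance, differed by 1.77. STM1, between PCD1 and YLR149C, moved against its neighbours.

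Unsorted mothers changed far less. At 48 h on glucose the median member was above log phase by 0.09, 0.12, 0.16 and 0.15 in replicates 1 to 4 (0.13 ± 0.03, SD, n = 4), while genes off chromosome XII changed by −0.03 to −0.01 and ChrXIIr by 0.41 to 0.51. Each sample had the members between the other genes and ChrXIIr. At 24 h the members changed by 0.04 to 0.07, and in the 72 h sample by 0.10. On galactose at 48 h the change was −0.04, 0.04 and 0.09 in replicates 1, 2 and 5 (0.03 ± 0.07, SD, n = 3), a spread that includes 0.

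Other diets fell within this range. At 48 h the members changed by 0.04 and 0.07 on fructose, by 0.12 on sucrose, by 0.06 on raffinose, by −0.0024 on raffinose with galactose and by −0.0095 on acetate. Cells divide slowly on acetate, and the study matches 72 h there to 48 h on glucose by age. In the 72 h acetate sample the members changed by 0.05 and ChrXIIr by 0.22. HAP4oe on glucose changed by 0.08 and 0.09 and cat8 on galactose by 0.05 and 0.02. Distance bins showed no order common to all groups. At 48 h on glucose the mean bin medians were 0.15, 0.16, 0.09 and 0.14 from near to far, and the slopes lay between −0.02 and 0.0021 per 100 kb. In unsorted HAP4oe cells at 48 h the bins fell from 0.16 to 0.08, 0.06 and 0.03, with slopes of −0.06 and −0.03. On galactose at 48 h the slopes lay between −0.03 and 0.08 in wild type and at 0.06 and 0.08 in cat8 cells.

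These shifts are small against the scaling. Once a trend of the change with abundance was removed, the members changed by 0.0069 on glucose and −0.0376 on galactose, while genes off chromosome XII changed by −0.18 to −0.14 in the glucose samples and −0.07 to −0.06 in the galactose samples. In each glucose sample the members were still above the other genes. On quantile-normalised values the glucose change was −0.03 and the galactose change −0.06. On that scale the median of all genes tested fell by 0.12 from log phase to 48 h on glucose, and that of the members fell by 0.02.

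**Figure D4:**
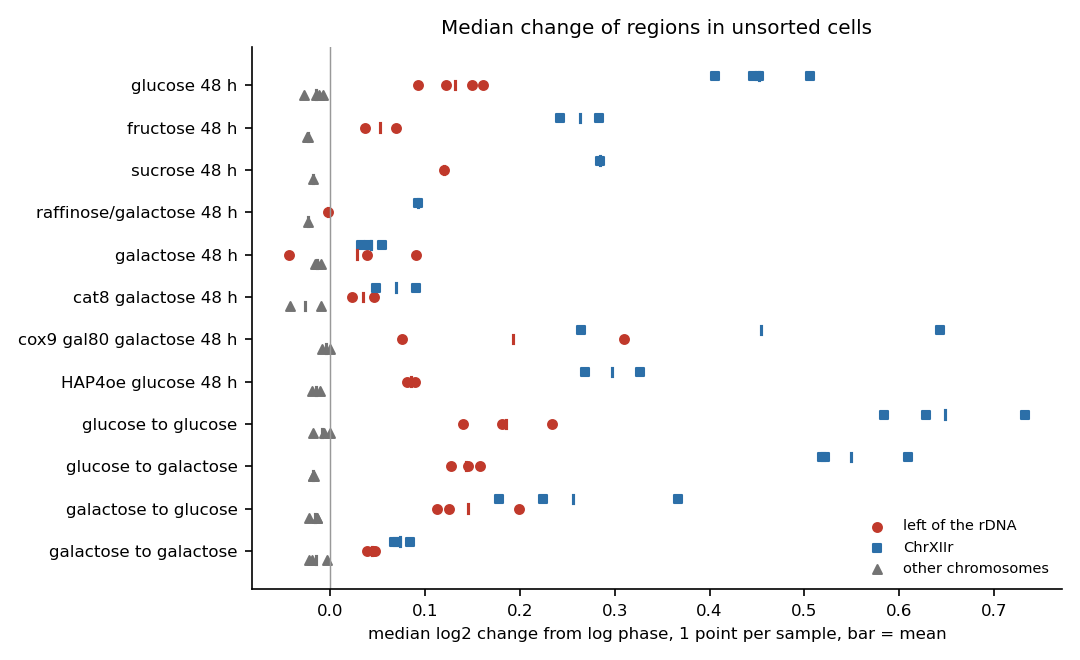
Median log2 change from log phase of the members, of ChrXIIr and of genes on other chromosomes, with 1 point per unsorted sample and a bar at the group mean. The 4 glucose samples at 48 h lie at 0.09 to 0.16 for the members and at 0.41 to 0.51 for ChrXIIr, while on galactose the members lie at −0.04 to 0.09.

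On glucose, 50 members were called higher and 47 lower at 48 h than at log phase, of 195 tested, against 57% of all 5924 genes (23.7% higher and 33.3% lower). On the values as deposited the split was 72 higher and 32 lower. The groups did not overlap for 120 members, 55 above and 65 below (26.5% and 39.2% of all genes). At 24 h 29 were higher and 19 lower (27.3% of all genes called). The calls within 100 kb at 48 h, 14 higher and 12 lower of 47, were as mixed as those beyond 300 kb, 14 and 15 of 55. Of the 50 members higher on glucose, 41 (82.0%) were among the 127 called higher in the low WGA fraction (32.3% of these), in samples that the comparisons did not share, where 63.5% of all members tested were called higher.

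YLR042C, a cell surface protein gene, rose most. It stood at 9.04, 9.55, 9.71 and 10.04 in replicates 1 to 4 at 48 h and at 3.23 to 3.82 at log phase (log2 change 6.09, SE 0.21, limma adjusted p = 5.75e-14). PUT1 rose from 6.53, 6.66 and 6.54 in log replicates 1, 2 and 4 to 11.02, 11.21, 11.17 and 10.74 (4.46, SE 0.23, limma adjusted p = 1.15e-11). SPO75, needed for spore formation, rose by 3.70 and YLR053C by 3.62. YLR149C rose from 6.13 to 6.53 at log phase to 8.83 to 9.42 (2.83, SE 0.25, limma adjusted p = 1.94e-08). For these genes every aged sample was above every log phase sample.

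Metal, sulfur and surface genes were among those that rose. Of the 195 members tested 50 were called higher and 47 lower (23.7% and 33.3% of all genes). Iron and other metal genes rose in 5 and fell in 2 of 9 cases, with TIS11 at 1.30, ISA1 at 1.10, FRA1 at 0.89 and FRE6 at 0.61. Sulfur genes rose in 3 and fell in 1 of 7 cases, led by JLP1 (1.67). Of 8 cell surface genes 6 rose and none fell, led by the protease YPS3 (3.06), although 1 of them fell on the values as deposited. UBI4 rose by 2.00 and the kinase KNS1 by 1.64, against falls of 4 other stress and signalling genes of 12, with the chaperone SSA2 at −1.18. SSA2 has a near-identical copy, SSA1, so its reads are uncertain.

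Falls were smaller. Mitochondrial genes fell in 6 and rose in 2 of 12 cases, against 33.3% of all genes lower and 23.7% higher. On the values as deposited 1 fell and 3 rose, so the direction of that list depends on the scaling. PAM18, of the protein import motor, fell by 1.26 and by 1.13 on those scales. The dubious frames YLR140W and YLR112W fell by 2.22 and 2.17, YLR108C, of unknown function, by 1.77 and ENT4, an epsin-like protein gene, by 1.27. On the values as deposited these 4 changes were smaller (−0.47, −0.79, −1.14 and −0.72), and neither YLR140W nor YLR108C was called. YLR108C, lower at 48 h on glucose than at log phase, was 4.89 higher in low than in high WGA cells. ACS2, beside the rDNA, fell by 0.57 and STM1 changed by 0.02 on the quantile scale but by −1.08 and −1.13 as deposited.

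On galactose, 22 members were called higher and 16 lower at 48 h (20.4% of all genes called), and without the 48 h replicate 2 the 38 calls became 25. By 24 h 19 had risen and 11 fallen (12.8% of all genes called). YLR042C rose from 5.18 to 5.99 at log phase to 9.75 to 10.14 (4.38, SE 0.22, limma adjusted p = 1.23e-10). SPO75 rose by 3.04, RNP1 by 2.55 and the polyamine exporter TPO1 by 2.26. The S-methylmethionine enzyme MHT1 fell by 1.01, as did YLR108C (1.73), YLR140W (1.55) and YLR112W (0.97), the last pair not called on the values as deposited.

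At 48 h, 42 members were higher on glucose than on galactose and 16 lower (25.7% of all genes called, 12.8% higher and 12.9% lower). Groups were separate for 56 members above and 22 below (20.8% and 19.6% of all genes). TIS11 stood at 8.43, 8.63, 8.43 and 8.40 on glucose in replicates 1 to 4 and at 6.68, 6.67 and 6.14 on galactose in replicates 1, 2 and 5 (1.97, SE 0.16, limma adjusted p = 4.40e-08). PUT1 was higher by 1.91, the spore wall gene OSW2 by 1.45 and RNP1 by 1.36. Metal genes were higher in 5 and lower in 2 of 9 cases.

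Of 12 mitochondrial genes 7 were lower on glucose and 1, PUT1, was higher (12.9% and 12.8% of all genes). On the values as deposited 3 were lower and 1 higher. The cytochrome oxidase subunit gene COX12 was lower by 1.17 (SE 0.13, limma adjusted p = 1.13e-06) and its assembly factor COX19 by 0.83, which was not called on the values as deposited. PUF3, whose protein binds messages for mitochondrial proteins, and IZH3, a membrane protein of zinc homeostasis, were lower by 0.86 and 0.83.

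The change from log phase to 48 h itself differed between glucose and galactose for 41 members, 28 with a more positive change on glucose and 13 on galactose (24.5% of all genes called). Without the galactose log replicate 1, 62 members were called in place of 41. The changes of the glucose samples lay above those of the galactose samples for 57 members and below for 51 (25.2% and 31.4% of all genes). For these 57 and 51 and the ranges below, each 48 h sample was set against the average log phase level in its medium. They hold the spread at 48 h only, not that at log phase, and samples were not paired by experiment. YLR149C rose by 2.57 to 3.16 on glucose and by 0.15 to 0.25 on galactose (difference 2.63, SE 0.37, limma adjusted p = 3.71e-05), yet at 48 h its level on glucose and galactose differed by 0.28, which was not called (limma adjusted p = 0.424). At log phase, 38 members were higher on glucose and 21 lower (31.9% of all genes called). TIS11 rose by 1.22 to 1.46 on glucose and changed by −0.84 to −0.30 on galactose (difference 1.78). TPO1 rose by 2.15 to 2.38 on galactose and changed by 0.17 to 1.10 on glucose (difference −1.67). Sulfur genes had a more positive change on glucose in 4 of 7 cases, led by SUL2 (1.68), and a more negative one in none.

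The media with 1 or 2 samples a time have no test, and their values as deposited are given for 3 members. YLR042C had low log phase levels and high levels at 48 h in each medium. It went from 2.95 and 3.08 to 10.29 and 9.88 on fructose in replicates 2 and 1, from 2.63 to 9.67 on sucrose, from 2.40 to 10.47 on raffinose and from 3.99 to 9.77 on acetate. Its 48 h levels on glucose were 9.09 to 10.00.

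PUT1 differed between media at log phase. The raffinose and acetate samples came from an experiment without log phase glucose, fructose or sucrose, so medium and experiment cannot be told apart. PUT1 stood at 5.76 to 5.98 on glucose, 5.86 and 6.18 on fructose and 6.02 on sucrose, but at 9.19 on raffinose and 11.58 on acetate, where it was lower at 48 h (10.48). At 48 h its levels were 10.06 and 10.05 on fructose, 10.07 on sucrose and 9.92 on raffinose, below the 10.64 to 11.06 of glucose. PUT1 in HAP4oe cells began at 6.40 and 5.74 in replicates 3 and 4, reached 9.06 and 8.95 by 24 h and ended with 10.17 and 10.20.

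TIS11 on acetate was at 9.83 in log phase cells, then at 7.77 by 48 h and at 9.52 by 72 h. On glucose it lay between 6.13 and 6.99 in log phase samples, 7.69 and 7.94 by 24 h, 8.48 and 8.69 by 48 h and at 9.05 in the 72 h sample, a higher range at each time. On galactose its ranges at log phase, 6.58 to 6.96, and at 48 h, 6.27 to 6.81, overlapped.

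In media shifts, members changed by 0.23, 0.14 and 0.18 in replicates 1, 2 and 3 of cells kept on glucose and by 0.04 to 0.05 in cells kept on galactose. Cells moved from glucose to galactose changed by 0.16, 0.13 and 0.15 from glucose log phase. Those moved from galactose to glucose changed by 0.20, 0.11 and 0.12 from galactose log phase, or by 0.07 on average from glucose log phase. ChrXIIr rose by 0.58 to 0.73 in cells kept on glucose and by 0.07 to 0.08 in cells kept on galactose. Against their own log phase, 62 members were higher and 55 lower in cells kept on glucose (66.4% of all genes called), 59 and 61 in those moved to galactose (65.4%), 68 and 31 in those moved to glucose (48.8%) and 40 and 26 in those kept on galactose (31.5%). On the quantile scale the median of all genes fell by 0.13 in cells kept on glucose and by 0.17 in cells moved to galactose. On that scale the members themselves changed by 0.0108 in cells kept on glucose, −0.0455 in cells moved to galactose and −0.0053 in cells kept on galactose. The members stood above the other genes in all 12 shifted samples on the values as deposited, by 0.05 to 0.25. By distance, cells moved from galactose to glucose had mean bin medians of 0.09, 0.15, 0.17 and 0.17 from near to far. Their slopes lay between 0.04 and 0.06 per 100 kb, and those of cells kept on galactose between 0.04 and 0.07. Slopes lay between −0.02 and −0.0006 in cells kept on glucose and between −0.03 and 0.0041 in those moved to galactose.

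With galactose as the final sugar, 33 members were higher after a first 24 h on glucose than after one on galactose and 7 were lower (22.4% of all 5990 genes called, 10.2% higher and 12.2% lower). Without the glucose to galactose replicate 1 the count was 24. Groups were separate for 73 members above and 34 below (23.5% and 29.4% of all genes). With glucose as the final sugar, 17 were higher and 5 lower (13.9% of all genes, 7.05% and 6.81%), 34 on the values as deposited and 11 without the galactose to glucose replicate 2.

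PUT1 and TIS11 were high after early glucose whatever came later. PUT1 ended at 11.11, 10.76 and 10.87 in glucose to galactose samples and at 9.27, 9.41 and 9.54 in galactose to galactose samples, replicates 1 to 3 (1.51, SE 0.13, limma adjusted p = 4.21e-08). With glucose last it ended at 11.15, 10.79 and 10.93 against 9.84, 9.90 and 9.55 (1.20, SE 0.13, limma adjusted p = 2.81e-06). TIS11 ended at 8.45, 8.30 and 8.10 against 6.39, 6.60 and 6.37 on galactose (1.83, SE 0.22, limma adjusted p = 2.48e-06) and at 9.16, 8.78 and 8.25 against 7.92, 7.75 and 7.36 on glucose (1.05, SE 0.22, limma adjusted p = 0.00140). In neither case did the groups overlap.

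COX12 and COX19 went the other way. COX12 ended at 9.66, 9.46 and 9.89 in glucose to galactose samples and at 10.42, 10.28 and 10.41 in galactose to galactose samples (−0.70, SE 0.09, limma adjusted p = 4.23e-06), and with glucose last it was lower by 0.55 after early glucose. COX19 was lower by 0.53 and 0.61, and ENT4 by 0.49 and 0.62, but on the values as deposited neither gene was called in either comparison.

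Called in both comparisons, which share no samples but come from 1 fit, were 16 members higher after early glucose (48.5% of the 33 and 94.1% of the 17) and 3 lower, COX12, COX19 and ENT4, out of 7 and 5. Besides PUT1 and TIS11 the 16 included the iron genes FRE6 (0.56 and 0.50) and FRA1 (0.34 and 0.29), the steryl ester hydrolase YEH1 (0.72 and 0.64), YLL053C, the kinase KNS1 and the chromosome repair gene NSE1. JLP1 was higher by 1.85 with galactose last (SE 0.27, limma adjusted p = 2.48e-05). With glucose last the difference of JLP1 was 0.70 and was not called (limma adjusted p = 0.0573), and whether the 2 differences differ was not tested.

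**Figure D5:**
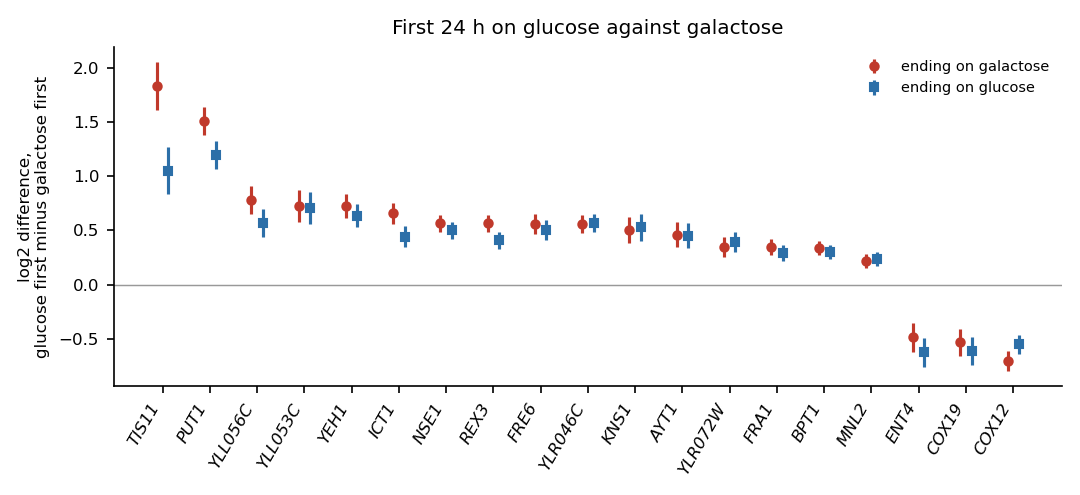
Log2 difference between cells given glucose and cells given galactose for the first 24 h, for the 19 members called in both comparisons, with galactose or glucose as the final sugar (mean over 3 and 3 samples, bars are SE). TIS11 and PUT1 lie highest, at 1.83 and 1.51 with galactose last, and COX12, COX19 and ENT4 lie below 0.

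A strain without the oxidase subunit gene COX9 and the galactose repressor gene GAL80 was set against wild type on galactose at 48 h. In the study this strain had a far lower replicative age at 48 h than wild type, so strain and replicative age cannot be told apart. Its members changed from log phase by 0.31 in replicate 1 and 0.08 in replicate 2 (0.19 ± 0.17, SD, n = 2), with ChrXIIr at 0.64 and 0.26. Of 199 members 21 were higher and 3 lower than in wild type (6.97% of all genes called, 3.8% higher and 3.17% lower), with groups separate for 84 above and 15 below (22.9% and 20.0%). The count rests on replicate 1, since without it 1 member was called, and without replicate 2 there were 38. Both samples came from the experiment that held wild type replicate 5 but not the others, and with experiment as a block 7 members were called (5 higher and 2 lower), TIS11, COX19 and TPO1 among them but not JLP1, PUT1, OSW2 or COX12.

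TIS11 stood at 9.74 and 7.93 in cox9 gal80 replicates 1 and 2 and at 6.68, 6.67 and 6.14 in wild type replicates 1, 2 and 5 (2.33, SE 0.43, limma adjusted p = 0.00232). JLP1 was at 8.77 and 7.03 against 5.60 to 5.85 (2.17) and PUT1 at 11.45 and 10.27 against 8.90 to 9.51 (1.73). COX19 was lower at 6.03 and 5.85 against 7.13 to 7.91 (−1.59, SE 0.23, limma adjusted p = 0.000401), as were COX12 (−1.57) and TPO1 (−1.11). From log phase to 48 h 33 members rose and 9 fell in cox9 gal80 cells (22.4% of all genes called). Cells without CAT8, an activator of gluconeogenic genes, had no member called against wild type at 48 h (limma, 11 members at an unadjusted p under 0.05, with 0.439% of all genes called), and from log phase to 48 h 8 of their members rose and 9 fell (5.57%).

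The 13 deletion strains on glucose had 1 sample each and no test. Against wild type, strain and experiment cannot be told apart, since no wild type sample came from the experiments of these strains. Their members changed from log phase to 48 h by 0.08 in cat8 to 0.16 in pmr1 (median 0.14), within or near the range of wild type, whereas ChrXIIr ranged from 0.18 in cat8 to 0.93 in pmr1. Slopes with distance lay between −0.02 and 0.05 per 100 kb. In the median over all members the strains thus spread far less than in ChrXIIr. Single distance bins spread more, from −0.03 in tec1 to 0.37 in pmr1 within 100 kb. Beyond 300 kb they ran from 0.09 in clb5 to 0.38 in tec1.

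Single members did vary between strains, on the values as deposited. PUT1 rose in all 13, from 2.80 in hap4 to 4.83 in pmr1, and JLP1 from 2.20 in cat8 to 4.31 in rox1. TIS11 was above log phase in 12, up to 3.74 in tec1, and below it by −2.30 in pmr1, the strain without the Golgi calcium and manganese pump. FRE6 was also lowest in pmr1, at −0.09. YLR149C changed by 0.09 in hap4 and by 1.22 to 3.73 in the others, and COX12 was lowest in hap4 (−0.75) and highest in clb5 (1.55). ACS2 and STM1 were below log phase in all 13 strains.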

How the data were processed

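Poly(A) RNA was read in single 75 bp reads. The authors trimmed reads with Trim Galore 0.6.6, aligned them with HISAT2 2.1.0 to R64 and used SeqMonk to count, for each open reading frame, the reads of opposite strand. The deposited values are log2 of counts scaled by size factors within each of 4 tables (118 samples, 128 columns, 8 libraries in more than 1 table), with 0 reads placed at 0.9 read.

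Here 28 mitochondrial genes were left out of 6692. Of 214 members, 196 were found in RefSeq (R64), all with the same coordinates. Medians used values as deposited and genes with log2 of at least 2 at log phase (4 in sorted cells). Limma 3.58.1 (R 4.3.3; eBayes with trend, Benjamini-Hochberg over all genes, adjusted p under 0.01) was run on quantile-normalised values, and on deposited values for sorted fractions, and tested on simulated data with known answers. Counts of members come from these fits, with no test over the list. Python 3.11.15, numpy 2.4.6, pandas 2.3.3 and matplotlib 3.10.9 were used.

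The members and lists were chosen with earlier results of these data known. Named were the 4 members of largest rise and 4 of largest fall per comparison among those called with separate groups, the 8 nearest the rDNA, examples of the fixed lists by size of change, and the deleted or overexpressed genes. The values of YLR108C in sorted cells, and of genes in the deletion strains, were singled out after they were seen.

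Titles name the experiment of each sample (for replicate 1 on glucose and galactose, only the sequencing lane). The main limma fits did not use it, and experiment entered only as the replicate block among the alternatives. Medians set a sample against the log phase sample of its experiment where there was 1, and compared fractions within an experiment. For samples of 1 experiment, deviations from group means correlated over genes between glucose to galactose and galactose to galactose cells (r = 0.26, 0.21 and 0.23), between galactose log phase and 48 h (0.25, 0.17 and 0.23) and between low and high WGA (0.23), but not in every pair between glucose log phase and 48 h (0.07, 0.12 and −0.05) or between glucose to glucose and galactose to glucose cells (0.22, 0.13 and −0.09). Alternatives were the other scaling, filters, no trend, a replicate block, each sample left out, all genes left of the rDNA and no dubious frames. Reads are not independent molecules, so read floors cover counting error only.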

Additional observations from a re-analysis of the deposited data

Results flagged for a closer look

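The change from log phase to 48 h differed between glucose and galactose, by limma's test of the difference itself, for 41 members. For the 8 named ones the difference of log2 changes was 2.63 for YLR149C, 2.41 for PUT1, 1.78 for TIS11 and 1.72 for YLR042C, with the more positive change on glucose, and −1.67 for TPO1, −1.30 for GEP5, a mitochondrial gene, −1.19 for the dubious YLR112W and −0.96 for PAM18. On the values as deposited GEP5 (−0.69) and YLR112W (−0.35) were smaller and not called.

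Among the 4 wild type glucose samples at 48 h, 1 sample lay far from the other 3 for 4 named members. SPO75 was at 7.14 in replicate 4 and at 6.49 to 6.60 in the others. TIS11 was at 8.63 in replicate 2 and at 8.40 to 8.43 in the others. PUF3 was at 8.70 in 1 sample and at 9.16 to 9.19 in the others, and COX19 at 7.07 against 6.54 to 6.62. These were 4 of 35 sets of values looked at, and chance gives about 1 in 20.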

How the results depend on the processing

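The low to high WGA difference of the members moved little: 1.61 as the mean of 2 experiments (1.61 and 1.62 singly), and 1.61 quantile-normalised, 1.64 with no filter, 1.55 with a stricter filter, 1.53 with the abundance trend removed, 1.60 with all genes left of the rDNA and 1.55 without dubious frames. The small shifts in unsorted cells moved more. Quantile normalisation gave −0.0344 for glucose at 48 h (0.13 as reported), −0.0607 for galactose (0.03), 0.0108 for glucose to glucose (0.19), −0.0455 for glucose to galactose (0.14) and −0.0053 for galactose to galactose (0.04). With the abundance trend removed these were 0.0069, −0.0376, 0.0191, −0.0261 and 0.0046, but this scale is not centred on 0 for other genes, which lay between −0.2094 and −0.0446 in these samples, and the members were above them in all but galactose replicate 1. No filter gave 0.24, 0.18 and 0.0583 for glucose to glucose, glucose to galactose and galactose to galactose. A stricter filter gave 0.10 on glucose and 0.13 for glucose to galactose, which was 0.13 without dubious frames. With all genes left of the rDNA galactose to galactose was 0.0358. From log phase in the final medium, an alternative chosen after seeing the data, glucose to galactose was 0.18 and galactose to glucose 0.0732. The slope with distance (−0.18 per 100 kb) was −0.0042 with no filter and −0.0472 from the high fraction, both also chosen after seeing the data.

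Leaving out 1 sample at a time gave ranges of 79 to 92 calls for glucose at 48 h, 25 to 48 for galactose, 42 to 56 for glucose against galactose, 31 to 62 for the difference of changes, 24 to 36 and 11 to 27 for early diet with galactose and glucose last, 82 to 111 for low against high WGA and 1 to 38 for cox9 gal80. Medians ranged from 0.12 to 0.14 on glucose, −0.0024 to 0.0647 on galactose (lowest without replicate 5), 0.16 to 0.21 for glucose to glucose, 0.14 to 0.15 for glucose to galactose, 0.12 to 0.16 for galactose to glucose, 0.04 to 0.05 for galactose to galactose and 0.08 to 0.31 for cox9 gal80, and the slope from −0.21 to −0.16. With glucose last, early diet gave 34 calls (24 higher and 10 lower) on the values as deposited.

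With the experiment named in the titles as the replicate block, 97 members were called for glucose at 48 h, 41 for galactose, 50 for glucose against galactose, 44 for the difference of changes, 54 and 33 for early diet with galactose and glucose last, 151 for low against high WGA (142 higher and 9 lower) and 7 for cox9 gal80 (24 without it). Outside cox9 gal80 the block ended the call of no named member. Over 716 values of 61 named results under the alternatives, none changed direction, 73 were no longer called and 37 results were called in every one. The cause was not tested. Depth limits the members at low counts, with medians of 105.5 and 450.5 reads a member in the HAP4oe low fractions.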
